A study of Mus musculus with 36 samples.

Results

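The miRNAs of wild-type naive CD4 T cells were set against those of the same cell type at day 14 of a T helper 2 (Th2) culture, to show which ended the culture above, below or at the level they started from. The comparison took all 7 libraries that the labels give as wild type at these times, of 36 in the series: 4 naive and 3 Th2 day 14 libraries. The cells were CD4+ TCRb+ T cells sorted from the spleen of C57BL/6J mice, and the naive cells were activated and polarised towards Th2 in vitro. Wild-type cells at day 7 (4 libraries) give the way station between both ends, and a triple knockout of Ago1, Ago3 and Ago4 (AGO134 knockout, 4 naive, 4 day 7 and 3 day 14 libraries), from littermates of the wild-type mice, give an independent set of libraries. All groups came from C57BL/6J mice, and the labels name no other allele or agent. The labels state neither the polarising agents, the age and sex of the mice, nor whether libraries of a group come from separate animals, so that p-values measure only the spread between these samples. The sorting label is the same for every library and does not say whether cultured cells were sorted again.

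A microRNA (miRNA) is a short RNA cut from a hairpin and loaded into an Argonaute protein, which it guides to mRNAs that pair with its seed, bases 2 to 8 from the 5′ end. miRNAs with the same seed can bind the same sites, and miRNAs cut from a single transcript are made together. A naive T cell is small and quiescent. On activation it divides and takes up an effector programme, in Th2 cells with GATA3 and the cytokines IL-4, IL-5 and IL-13, and miRNAs such as miR-155, the miR-17-92 cluster and the miR-23-27-24 clusters are known to tune these steps.

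The libraries held 196357 to 243748 miRNA counts in naive cells and 254369 to 265008 at day 14. Counts of the 9 entries named STD, which name no miRNA and were left out, took 47.1% to 51.1% and 41.3% to 44.1% of all counts. Levels are counts per 1e6 miRNA counts (CPM) after TMM scaling, and a count of 0 in 1 library allows a level of up to 10.4 to 16.0 CPM there, for counting error only. Net change means day 14 over naive. A miRNA was called when the edgeR adjusted p was under 0.05. Every change is therefore one against the rest of the library, and fewer cells that hold a miRNA cannot be told apart from less of it per cell. The net log2 change of all 382 miRNAs tested had a median of 0.15, which moved to 0.35 with DESeq2 size factors and to 0.58 with scaling to the STD entries. Small changes near these medians therefore have no fixed sign.

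The mature sequences below (RefSeq, GRCm38.p6, 5′ to 3′, seed in capitals) are those of the miRNAs on which the results turn. The first set lies beyond its naive level at day 14 after a change in the opposite direction at day 7, and miR-10a, miR-125a and miR-92b carry 3 different seeds.
miR-10a-5p: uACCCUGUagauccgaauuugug
miR-125a-5p: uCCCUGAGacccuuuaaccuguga
miR-92b-3p: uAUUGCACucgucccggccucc
miR-15b-3p: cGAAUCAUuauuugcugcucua
The next set returned to within 2-fold of its naive level after a change of 2-fold or more at day 7. The third of its lines is shared by let-7a-1-3p and let-7c-2-3p, whose mature sequences are the same.
miR-423-5p: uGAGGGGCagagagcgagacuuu
miR-106b-5p: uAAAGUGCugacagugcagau
let-7a-1-3p: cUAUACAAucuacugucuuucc
miR-15a-5p: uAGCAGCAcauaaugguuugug
Large increases and decreases are shown next. miR-152-3p and miR-148a-3p share a seed, as do miR-181a-5p and miR-181b-5p.
miR-152-3p: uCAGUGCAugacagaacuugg
miR-148a-3p: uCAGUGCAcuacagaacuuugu
miR-34a-5p: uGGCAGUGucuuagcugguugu
miR-210-3p: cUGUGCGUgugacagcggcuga
miR-182-5p: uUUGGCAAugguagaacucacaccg
miR-183-5p: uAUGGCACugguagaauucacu
miR-22-3p: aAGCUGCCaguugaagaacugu
miR-181a-5p: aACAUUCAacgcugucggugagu
miR-181b-5p: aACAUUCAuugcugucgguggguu
miR-211-5p: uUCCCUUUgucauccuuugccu
miR-139-5p: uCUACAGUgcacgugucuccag
The last set holds miRNAs with a common seed whose net changes were called in opposite directions.
miR-99a-5p: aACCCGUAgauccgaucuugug
miR-99b-5p: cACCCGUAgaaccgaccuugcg
miR-125b-5p: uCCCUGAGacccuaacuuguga
miR-351-5p: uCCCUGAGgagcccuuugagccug
miR-146a-5p: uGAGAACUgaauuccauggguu
miR-146b-5p: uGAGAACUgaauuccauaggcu

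Most miRNAs that could be tested did not end where they began. Of 382 tested, 297 were called between naive cells and Th2 day 14 (77.7%), 155 of them higher (40.6%) and 142 lower (37.2%). Changes of 2-fold or more were called for 219 (57.3%), 123 up (32.2%) and 96 down (25.1%), and 108 changed by 4-fold or more, 67 up and 41 down. For 298 miRNAs (78.0%) the 4 naive and 3 day 14 libraries did not overlap. Scaling to the STD entries left 172 calls higher and 91 lower, a higher share of 65.4% in place of 52.2%. Another 124 miRNAs had counts in naive libraries only and 207 in day 14 libraries only, most of them too rare to test.

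**Figure D1:**
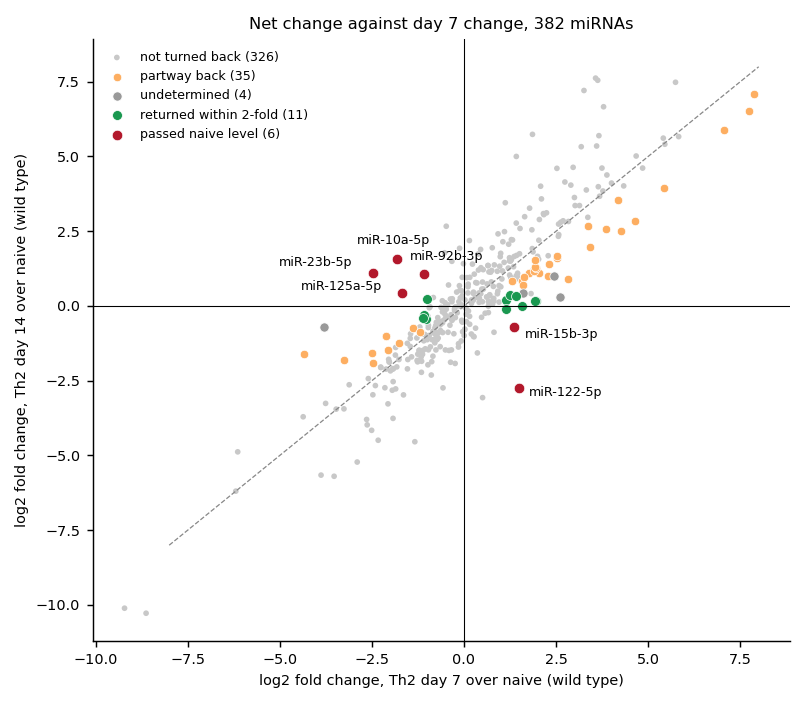
Log2 fold change of each of 382 miRNAs from naive to Th2 day 7 (x axis) and from naive to Th2 day 14 (y axis) in wild-type cells, 1 point per miRNA, with colours for the class of those that turned back (light grey for all others); the dashed line marks equal change. The 6 miRNAs that passed their naive level (red) lie in the upper left and lower right, and the 2 points at the lower left are miR-211-5p and miR-181a-2-3p, whose fitted values rest on 1 and 2 counts at day 14.

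The largest increases were led by miR-152-3p, which is cut from an intron of Copz2 at chr11:96850439-96850459 and is a sister of miR-148a. It stood at 0, 4.43, 7.91 and 5.34 CPM in the naive libraries and at 968, 868 and 1033 CPM at day 14 (log2 fold change 7.62 with SE 0.43, adjusted p = 1.5e-15). All day 14 libraries lay over 100 times above the highest naive library, and day 7 was in between (16.7, 70.3, 78.3 and 55.7 CPM). miR-34a-5p, a p53 target that restrains the cell cycle (chr4:150068473-150068494, no host gene found on its strand), had 2 and 408 counts in the 2 groups and 569, 262 and 621 CPM at day 14. The ratio of its levels was 229-fold (exact 95% interval 62.9 to 1893), and library 2 held the lowest of its day 14 levels.

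miR-210-3p, the miRNA that hypoxia induces through HIF-1 (chr7:141221407-141221428, no host gene found on its strand), stood at 78.4, 44.3, 47.4 and 53.4 CPM in naive cells and at 3128, 2391 and 2864 CPM at day 14 (log2 fold change 5.61 with SE 0.38, adjusted p = 8.3e-14). Day 7 already stood at 2425 CPM, and the change from day 7 to day 14 did not pass (0.20, adjusted p = 0.559). The other arm of this hairpin, miR-210-5p, had 0 counts in all naive libraries and 20 at day 14, at least 7.47-fold higher against a floor of 3 counts over the group. miR-672-5p likewise went from 0 to 90 counts, at least 33.6-fold higher, with 34.7, 75.8 and 213 CPM in the 3 libraries. Library 3 held most of these counts, and without it the fitted log2 change was 6.57 against 7.55, neither of which is a bound.

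Both arms of miR-147, which Toll-like receptor signals induce in macrophages, were nearly absent at the start. miR-147-3p rose from 7.47, 0, 3.95 and 0 CPM to 139, 182 and 284 CPM, a level ratio of 62.7 (exact 95% interval 21.1 to 307). miR-147-5p rose from 0, 4.43, 0 and 0 CPM to 146, 155 and 199 CPM, on 1 naive count (level ratio 156, interval 27.5 to 6193). Neither arm overlapped between the groups, and the intervals span more than a factor of 10. The 12 largest increases also held miR-6538 (net log2 change 5.88), miR-183-3p (5.70), miR-21c (5.33), miR-2137 (5.02), miR-1948-3p (5.00, 4 naive counts) and miR-96-3p, with 2 naive counts against 92 (level ratio 51.5, interval 13.9 to 432). miR-21c shares its seed with miR-21a-5p and is a near copy of it, so that its reads cannot be told apart with certainty from those of miR-21a-5p, which was over 100 times more abundant.

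**Figure D2:**
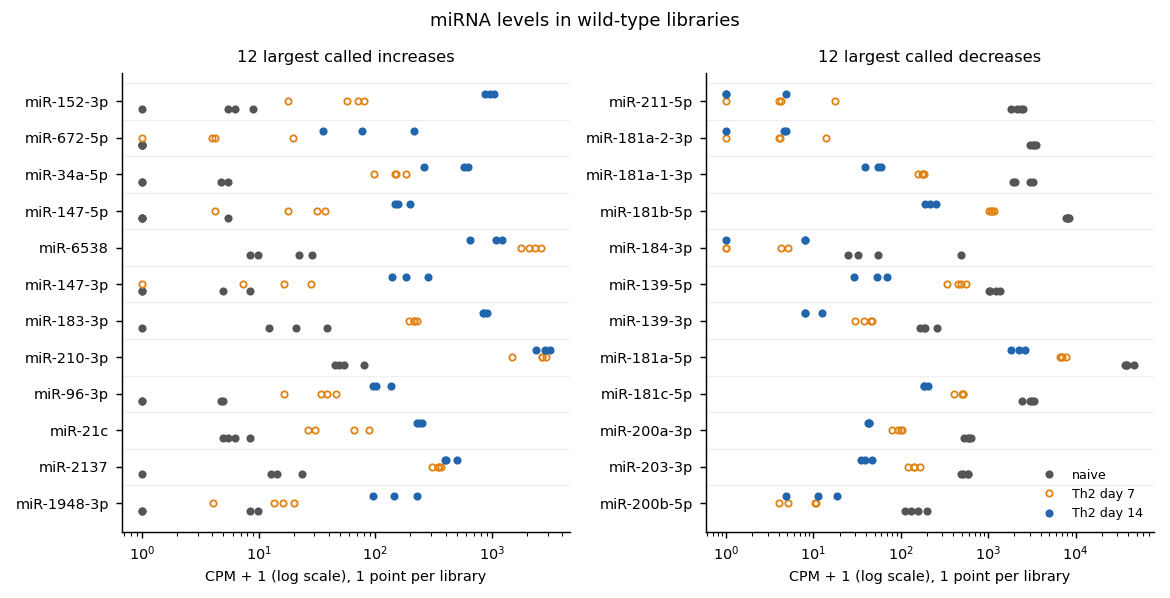
Levels of the 12 miRNAs with the largest called increase and the 12 with the largest called decrease from naive to day 14 among those of at least 100 CPM in either group, as CPM + 1 on a log axis with 1 point per library (4 naive, 4 day 7, 3 day 14). In each row the naive and day 14 points do not overlap, and most day 7 points lie between them.

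Among the decreases, miR-211-5p and the star strand miR-181a-2-3p went from a high level to almost none. miR-211-5p, cut from an intron of Trpm1 (chr7:64205831-64205852), stood at 2353, 1815, 2483 and 2161 CPM in naive cells, at 16.7, 3.2, 3.01 and 0 CPM at day 7 and at 0, 3.79 and 0 CPM at day 14. Its counts were 2073 and 1, a level ratio of 1851 (exact 95% interval 332 to 73134). miR-181a-2-3p fell from 3332, 3006, 3510.3 and 3293 CPM to 0, 3.79 and 3.55 CPM, or from 3076 counts to 2 (level ratio 1373, interval 379.8 to 11343). Both losses were already in place at day 7.

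The miR-181 family, which sets the sensitivity of the T cell receptor during thymic selection and fades with maturation, fell as a whole, and 4 of 4 members were called lower under each of the 4 other scalings too. miR-181a-5p went from 36661, 39004, 38218 and 46716 CPM in naive cells through 7073 CPM at day 7 to 2652, 2244 and 1849 CPM at day 14 (log2 fold change -4.16 with SE 0.20, adjusted p = 4.62e-17). It was the third most abundant miRNA of naive cells, and its highest day 14 library lay more than 10 times below its lowest naive library. miR-181b-5p fell from 8167 ± 216 to 219 ± 33.1 CPM (SD, n = 4 and 3; -5.22), miR-181c-5p by 3.98 and miR-181d-5p by 2.97 on the log2 scale. The star strand of the other locus, miR-181a-1-3p, still held 59.01, 37.9 and 53.2 CPM at day 14, after 2562 ± 674 CPM in naive cells (-5.66). miR-181a-5p itself is made from both loci and cannot be assigned to either.

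miR-139-5p, which restrains growth factor signalling in many cells (chr7:101475382-101475403, in an intron of Gm45837), stood at 1222, 1009.5, 1352 and 1046 CPM in naive cells, 334, 451, 482 and 563 CPM at day 7 and 52.1, 68.2 and 28.4 CPM at day 14 (log2 fold change -4.54 with SE 0.25, adjusted p = 6.46e-16). More of its decrease came after day 7 (-3.21) than before (-1.33), and the 3 groups did not overlap. Its other arm, miR-139-3p, fell alike (-4.49). In the miR-200 family, which epithelial cells keep high, miR-200a-3p fell by 3.79 and miR-200b-5p by 3.71. miR-203-3p, known from keratinocytes, fell from 542 ± 46.6 to 39.5 ± 6.11 CPM (-3.76).

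miR-184-3p was called lower (log2 fold change -4.88 with SE 1.01, adjusted p = 8.07e-05), but naive library 1 held 493 CPM where the other 3 held 31.0, 23.7 and 53.4 CPM and the day 14 libraries 6.94, 0 and 7.1 CPM. Without naive library 1 or 4 its counts were too low to be tested.

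Ranked by level, the set of the most abundant miRNAs changed in part. These are ranks of read counts without a length correction, and were not checked against numbers of molecules. The 10 most abundant of naive cells took 35.1% ± 2.15 of miRNA counts there and 23.2% ± 0.614 at day 14 (SD, n = 4 and 3). The 10 most abundant of day 14 took 31.8% ± 0.373 there and 22.9% ± 1.43 in naive cells, and 5 miRNAs were in both sets. These were miR-26a-5p, let-7f-5p, let-7a-5p, let-7i-5p and miR-191-5p, of which let-7f-5p (-0.28), let-7i-5p (-0.02) and miR-191-5p (-0.11) were not called. With STD scaling let-7i-5p (0.41, adjusted p = 0.000525) and miR-191-5p (0.33, adjusted p = 0.00838) were called higher. Without naive library 1 let-7f-5p was called lower (-0.43, adjusted p = 0.0438). The calls of let-7a-5p (-0.55) and miR-26a-5p (-0.36) ended without naive library 4 or any 1 of the day 14 libraries, and with DESeq2 size factors or STD scaling. The 5 that left the top were miR-181a-5p, miR-150-5p, let-7c-5p, let-7g-5p and miR-25-3p, the last without a call (-0.23). miR-25-3p was called lower with library size alone, with loess offsets and without naive library 1.

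miR-182-5p, which targets Foxo1 in helper T cells, had the highest mean of day 14, level with miR-26a-5p. Their means were 38020 ± 1966 and 37996 ± 2954 CPM (SD, n = 3). miR-182-5p stood at 4789, 5402, 4471 and 5838 CPM in naive cells and at 35750.2, 39188 and 39121 CPM at day 14 (log2 fold change 2.89 with SE 0.13, adjusted p = 1.02e-17). miR-22-3p (chr11:75463772-75463793, annotated in an exon of Tlcd2) rose from 5043, 4251, 4289 and 3890.4 to 28482, 30892 and 30179 CPM (log2 fold change 2.77 with SE 0.14, adjusted p = 1.38e-16), in like steps before day 7 (1.42) and after it (1.35). For miR-182-5p and miR-22-3p, the lowest day 14 library lay more than 5 times above the highest naive library. miR-21a-5p, induced in activated T cells and cut from an exon of Vmp1 (chr11:86584120-86584141), rose from 8451 ± 1031 to 28349 ± 3303 CPM (1.75), nearly all of it by day 7 (1.51). miR-150-5p, a mature lymphocyte miRNA with Myb as a target, fell from 37795 ± 3976 to 10393 ± 1982 CPM (-1.86), about evenly before day 7 (-0.87) and after it (-0.99).

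A net change hides what happened on the way. Between naive and day 7, 292 of 382 miRNAs were called (76.4%), and between day 7 and day 14, 191 (50.0%). Of 201 called with a change of 2-fold or more at day 7, 50 were called further in the same direction by day 14, 95 were not called after day 7, and 56 were called in the opposite direction (14.7% of 382). These 56 are termed turned back, 37 of them after a rise and 19 after a decrease. The rule uses the levels at all 3 times, so the classes below are a description without a test. Both changes share the day 7 libraries, and both comparisons with naive share the naive libraries. Of the 297 net calls 237 had the direction of their day 7 call, 8 the opposite direction, and 52 had no call at day 7 (28 higher and 24 lower), among them miR-155-5p, miR-10b-5p and miR-143-3p. Of the 85 miRNAs without a net call 64 had a 95% interval within 2-fold. Just outside the 2-fold limit lay miR-130b-3p (0.95 at day 7) and just inside miR-340-3p (-1.01).

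Of the miRNAs that turned back, 6 passed their naive level, that is, their net change was called against the direction of day 7. miR-10a-5p, which lies in the Hoxb cluster and is known from regulatory T cells, stood at 1019.8, 341, 320.2 and 379 CPM in naive cells, 167, 134.2, 136 and 152 CPM at day 7 and 1559, 1603 and 1515 CPM at day 14 (chr11:96317186-96317208). It fell by 1.83 on the log2 scale to day 7 and rose by 3.41 after it (net log2 fold change 1.58 with SE 0.26, adjusted p = 4.34e-06). Naive library 1 held almost 3 times the level of the other naive libraries, all day 14 libraries lay above it, and without it the net value was 2.10. miR-10b-5p, its sister with the same seed at another Hox cluster, had only 11 counts in naive cells and 65 at day 14 (2.67), with no call at day 7 (-0.48).

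miR-125a-5p, a regulator of T cell homeostasis from an exon of Spaca6 (chr17:17830817-17830840), stood at 7878, 7204, 8942 and 8571 CPM in naive cells, 2593, 2573, 2425 and 2507 CPM at day 7 and 10386, 11400.2 and 11067 CPM at day 14. The 4 day 7 libraries lay close together and far below all others, and day 14 ended above naive cells without overlap (net log2 fold change 0.43 with SE 0.14, adjusted p = 0.006). Without naive library 2 the net change was 0.32 and lost its call (adjusted p = 0.0606). The other arm of the same hairpin, miR-125a-3p, was not called at day 7. It stood at 129 ± 24.6, 119 ± 7.62 and 492 ± 54.4 CPM (SD, n = 4, 4 and 3), with a day 7 change of -0.12 (adjusted p = 0.61).

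miR-92b-3p shares its seed with the miR-92a arm of the miR-17-92 cluster but has its own locus (chr3:89227126-89227147). It stood at 1049.7, 952, 1095 and 1105 CPM in naive cells, 447, 473, 488 and 573 CPM at day 7 and 1968, 2319 and 2331 CPM at day 14 (net log2 fold change 1.07 with SE 0.15, adjusted p = 4.49e-07). No library of 1 time overlapped with another time. miR-23b-5p, the star strand of miR-23b, went from 33.6, 39.8, 51.4 and 53.4 CPM through 4.17, 9.59, 6.02 and 9.29 CPM to 48.6, 106 and 131 CPM (net log2 fold change 1.10 with SE 0.35, adjusted p = 0.00604). Day 14 library 1 lay among the naive libraries, and without day 14 library 3 the net change was not called in either direction. Its guide strand miR-23b-3p rose in place of a decrease (0.75 at day 7), with means of 3803, 6404 and 8656 CPM.

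The other 2 rose first and then ended below naive cells. miR-122-5p, which defines hepatocytes, stood at 224, 270.1, 269 and 256 CPM in naive cells, 902, 818, 642 and 495 CPM at day 7 and 45.1, 41.7 and 24.8 CPM at day 14 (net log2 fold change -2.76 with SE 0.30, adjusted p = 1.59e-09). It is not a known product of T cells, and its part in these libraries was not tested. miR-15b-3p, the star strand of miR-15b in an intron of Smc4 (chr3:69009813-69009834), went from 1019.8, 1041, 1388 and 1190.1 CPM through 3114, 3148, 2886 and 2739 CPM to 823, 675 and 628 CPM (net log2 fold change -0.71 with SE 0.20, adjusted p = 0.00203). With STD scaling this call ended (-0.28, adjusted p = 0.442), and miR-15b-3p then counted as returned. The guide strand miR-15b-5p, a brake on the cell cycle, was not called at day 7 (0.01) and also ended lower (-0.99).

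**Figure D3:**
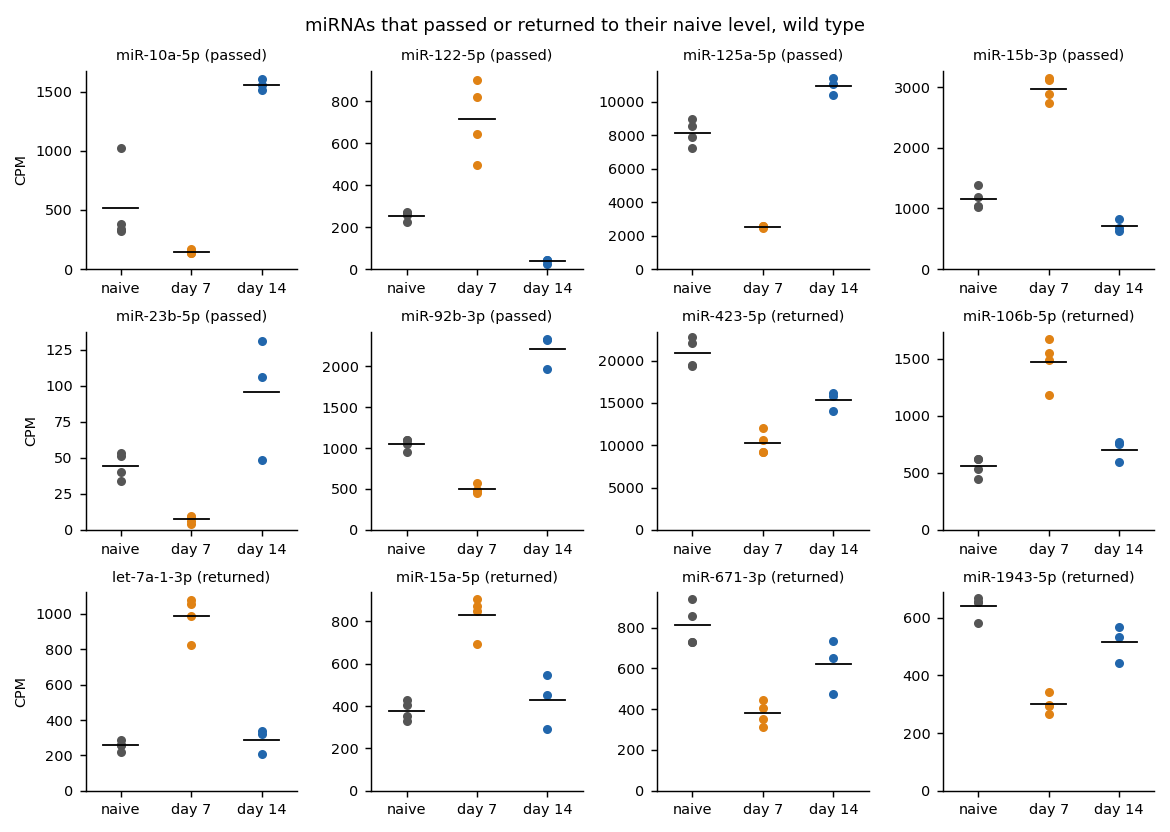
Level in CPM (y axis, linear from 0) of the 6 miRNAs that passed their naive level and of the 6 most abundant that returned to it, in naive, day 7 and day 14 wild-type libraries (1 point per library, bars are means; let-7c-2-3p equals let-7a-1-3p and is not drawn). For miR-10a-5p, miR-125a-5p, miR-92b-3p and miR-23b-5p the day 7 points lie lowest, and for miR-122-5p and miR-15b-3p highest.

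Among them 11 miRNAs returned, with the 95% interval of their net change wholly within 2-fold. miR-423-5p, from an intron of Nsrp1 (chr11:77078122-77078144), was the most abundant of them and stood at 19466, 22749.5, 19366 and 22013 CPM in naive cells, 11998, 9243, 9209 and 10586 CPM at day 7 and 14055, 15831 and 16202 CPM at day 14. Its day 14 libraries lay between both other groups without overlap, and a small net decrease was still called (log2 fold change -0.44 with SE 0.15, adjusted p = 0.0105). This call ended with DESeq2 size factors, DESeq2, STD scaling and no filter, and without day 14 library 1 (-0.41, adjusted p = 0.0856).

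miR-106b-5p, which promotes entry into the cell cycle by lowering p21 and lies in an intron of Mcm7 (chr5:138165787-138165807), rose from 624, 619.9, 534 and 448 CPM to 1186, 1550.1, 1678 and 1489 CPM at day 7 and stood at 753, 591 and 770 CPM at day 14 (net 0.34, adjusted p = 0.117). A net rise of miR-106b-5p was called with DESeq2 size factors (0.54, adjusted p = 0.00827) and loess offsets (0.55, adjusted p = 0.00362). It was also called with DESeq2 and in the fits with fewer groups. miR-15a-5p, a brake on cyclins and BCL2 from a Dleu2 intron (chr14:61632075-61632096), stood at 329, 407, 427 and 352, then 693, 873, 907 and 848 and then 455, 292 and 546 CPM (net 0.19, adjusted p = 0.41). let-7a-1-3p, which cannot be told apart from let-7c-2-3p by sequence (chr13:48538188-48538209 and chr15:85706664-85706685), rose from 258, 221, 285 and 261 CPM to 827, 988, 1078 and 1056 CPM and stood at 337, 318 and 209 CPM at day 14 (net 0.17, adjusted p = 0.51). In these 3, all day 7 libraries lay above every naive and day 14 library, and the naive and day 14 libraries overlapped.

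The other returns after a rise were miR-101b-3p (net 0.38), miR-671-5p (-0.09) and let-7i-3p (0.01). After a decrease they were miR-340-3p (0.22), miR-1943-5p (-0.31) and miR-671-3p (-0.40). With DESeq2 size factors net rises of miR-101b-3p (0.58, adjusted p = 0.0145) and miR-340-3p (0.43, adjusted p = 0.0228) were called. Without day 14 library 2 a net decrease of miR-1943-5p was called (-0.41, adjusted p = 0.0475). The net decrease of miR-671-3p was called here (adjusted p = 0.0316), a call that ended under all other scalings, with DESeq2, with no filter, with the replicate block, in fits with fewer groups and without naive library 1 or 4 or day 14 library 1. Of the 19 alternatives that hold the day 7 libraries, the return held in 18 for miR-106b-5p, miR-15a-5p, let-7a-1-3p and let-7c-2-3p, and in 16 for miR-101b-3p and miR-671-3p. It held in 12 for miR-1943-5p, 11 for miR-340-3p, 10 for miR-671-5p, 9 for miR-423-5p and 8 for let-7i-3p. None of the 11 met a limit of 1.5-fold in place of 2-fold, so that a return here means within 2-fold and no closer. Another 4 were left undetermined, their intervals reaching beyond 2-fold without a call: miR-16-1-3p, miR-15a-3p, miR-455-5p and miR-7072-5p.

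The 35 others turned back only partway and kept a called net change in the day 7 direction. miR-6538 rose from 7.47, 8.86, 27.7 and 21.3 CPM to 1766, 2614, 2082 and 2340.1 CPM at day 7 and stood at 1073, 1217 and 646 CPM at day 14 (net 5.88). miR-5121 (159, 3965 and 1133 CPM) and miR-1949 (198, 3801 and 1141 CPM) had the same shape. These 3 lost over 50% of their day 7 level in the second week, and their day 14 means were at least 5 times their naive means. miR-12188-5p and miR-1968-5p had 0 naive counts and were at least 16.4-fold and 24.3-fold higher at day 14.

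Several partway members belong to the proliferation-linked miR-17-92 cluster and its paralogs. miR-18a-5p stood at 844, 983, 763 and 720.4, then 2426, 2196, 2573 and 2749 and then 1545, 1395 and 1501 CPM (net log2 fold change 0.84 with SE 0.13, adjusted p = 1.87e-06). miR-363-3p, of the paralog on chromosome X, stood at 4146, 3750.3, 3973 and 3517, then 14849.6, 14673, 13869 and 14802 and then 10907, 9066 and 8264 CPM (net log2 fold change 1.29 with SE 0.12, adjusted p = 1.4e-10). For both, the 3 times did not overlap and day 7 was the highest. miR-19a-3p (1.10), miR-19b-3p (0.97), miR-18b-5p (1.01) and miR-363-5p (0.84) also had their highest mean at day 7, as did miR-301a-3p (2.68) and miR-301b-3p (3.55) of the miR-130 and miR-301 family.

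Partway returns from below included miR-3963 (21920.3, 22169.5, 20576 and 25418, then 6291, 6817, 6729.6 and 6627 and then 9407, 9221 and 9786 CPM, net -1.25), miR-5100 (-1.81) and miR-151-3p (-1.58). The last was turned back under all alternatives but STD scaling. miR-128-3p (net -0.88) had a rise after day 7 of only 0.33 and was turned back under 5 of 19 alternatives. Of 19 alternatives that hold the day 7 libraries, miR-10a-5p and miR-122-5p kept their class in 19, miR-125a-5p, miR-23b-5p and miR-15b-3p in 18 and miR-92b-3p in 13, since its day 7 decrease did not meet the rule under the rest.

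The pool was then read by what the miRNAs are known for. Over all 382 tested, 155 were higher, 142 lower and the median was 0.15, and each list below is given beside these. The lists were chosen with earlier results of these data known, so their counts describe the pool and are no test. Some miRNAs stand in several lists, so the lists are not separate results. Of the 22 tested miRNAs known to be induced by T cell activation, 16 were higher at day 14 and 1 lower, with a median of 1.10 (17 to 18 higher and 0 or 1 lower under DESeq2 size factors, loess offsets and STD scaling). miR-155-5p, made from the Mir155hg transcript and required for helper T cell responses, stood at 8644, 8311, 7973 and 9467 CPM in naive cells, 9598 CPM at day 7 and 16211, 16168 and 17696 CPM at day 14 (log2 fold change 0.96 with SE 0.13, adjusted p = 1.72e-07). Its called rise lay in the second week (0.80), and its change by day 7 was 0.16 (adjusted p = 0.237). The 1 lower member was miR-146a-5p, which dampens signals to NF-kB (-0.45), and miR-132-3p (-0.06) and miR-132-5p (-0.06), CREB targets, were not called.

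Of 19 tested miRNAs known to be lost on activation, 14 were lower and 1 higher, with a median of -0.64 (9 lower and 2 higher with a median of -0.22 under STD scaling). Besides miR-181a-5p, miR-150-5p and miR-139-5p these held miR-342-3p (-1.23), miR-26b-5p (-1.16) and miR-101a-3p (-1.39). The higher member was miR-29c-3p (1.40). All 4 called members of the miR-30 family of 5 were lower, led by miR-30a-5p (-2.82) and miR-30e-5p (-1.87), while miR-30c-5p (0.06) had risen by day 7 (0.78) and was not called at day 14. Of 12 miRNAs abundant in T cells in general (core T cell list), 4 were higher (miR-155-5p, miR-27a-3p, miR-24-3p and miR-21a-5p) and 7 lower, with a median of -0.42, and STD scaling left 5 higher and 2 lower.

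Of 16 regulators of Th2 differentiation, 12 were higher and 2 lower, with a median of 1.15 (13 higher under each other scaling but library size alone, and 0 lower with STD scaling). The miR-23-27-24 clusters, which restrain IL-4 and GATA3, gave 11 of 11 members higher, with a median of 1.69, and 11 of 11 under each other scaling. miR-24-3p stood at 6743, 6287, 6526 and 6596 CPM in naive cells and 14971, 17494 and 16823 CPM at day 14 (log2 fold change 1.33 with SE 0.13, adjusted p = 2.14e-10). miR-27b-3p, the most abundant, had the smallest change (0.46), and the star strand miR-27a-5p the largest (4.61). miR-128-3p (-0.88) and miR-146a-5p were the 2 lower regulators, and miR-17-5p (0.41) and miR-20a-5p (0.14) were not called.

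The miR-183-96-182 cluster, a single transcript on chromosome 6 that activated helper T cells induce through IL-2 and STAT5, gave 4 of 4 list members higher with a median of 4.51. By hairpin position, which adds miR-96-3p, all 5 tested arms were higher. miR-182-5p, miR-183-5p and miR-96-5p also stand in the list induced by T cell activation. miR-183-5p (chr6:30169711-30169732) stood at 1359.7, 1253, 1087 and 1441 CPM in naive cells, 18907 CPM at day 7 and 24444, 27568 and 28227 CPM at day 14 (log2 fold change 4.38 with SE 0.15, adjusted p = 2.53e-20). miR-96-5p went from 129 CPM through 1003 CPM to 3209 CPM, with more of its rise left for the second week (1.67 against 0.50 for miR-183-5p). The summed level of the 4 list members was 5677 to 7455 CPM in naive libraries and 64450 to 71553 CPM at day 14, with no overlap.

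Other families in which every tested member rose were miR-130 and miR-301 (4 of 4, median 3.11), miR-148 and miR-152 (3 of 3, 2.22), miR-221 and miR-222 (3 of 3, 1.10) and miR-10 (2 of 2, 2.12), and these counts held under each other scaling. In the list of the X-linked miR-322 and miR-503 cluster 6 of 8 rose, with a median of 1.39, and miR-450a-5p (0.01) and miR-542-5p (0.24) were not called. The list leaves out some arms of this cluster, such as miR-351-3p (2.49). By hairpin position 10 arms were tested and 7 were higher. All 13 tested miRNAs of the Sfmbt2 intron cluster were lower, with a median of -1.17, and 7 of 13 were with STD scaling. Its near-identical members can share reads and are not 13 separate measurements. Of the 18 tested members of miR-17-92 and its paralogs, 7 were higher, 2 lower and 9 not called (median 0.27, and 9 higher and 0 lower with STD scaling), and of 10 let-7 members 1 was higher, 5 lower and 4 not called. The let-7 median of -0.38 turned to 0.05 with STD scaling. In the Drosha-independent list 1 of 5 was higher (miR-877-5p, 1.17) and 1 lower (miR-484, -0.51), and the only tested member of the Dlk1-Dio3 cluster was not called (miR-127-3p, -1.03).

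The remaining lists were small or mixed. Both members of the miR-26 family were lower, and miR-26a-5p turned to 0.07 with STD scaling. In the miR-132 and miR-212 cluster miR-212-3p (1.92) and miR-212-5p (2.15) were higher. Of 5 miR-15 and miR-16 members 2 were higher and 2 lower, of 3 miR-29 members 1 and 1, of 2 miR-146 members 1 and 1, and of 6 members of the miR-99, miR-100 and miR-125 families 4 and 2. Both arms of miR-210, the hypoxia list, were higher (median 5.51, or 4.26 with miR-210-5p at its bound). In the miR-148 and miR-152 family miR-148a-3p (chr6:51269829-51269850) stood at 2185, 2922, 1814 and 2247 CPM in naive cells and 10646, 10528 and 10829.6 CPM at day 14 (log2 fold change 2.22 with SE 0.14, adjusted p = 4.43e-14), without overlap. miR-148b-3p changed less (0.80), so that the 3 miRNAs of this seed spanned 0.80 to 7.62.

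**Figure D4:**
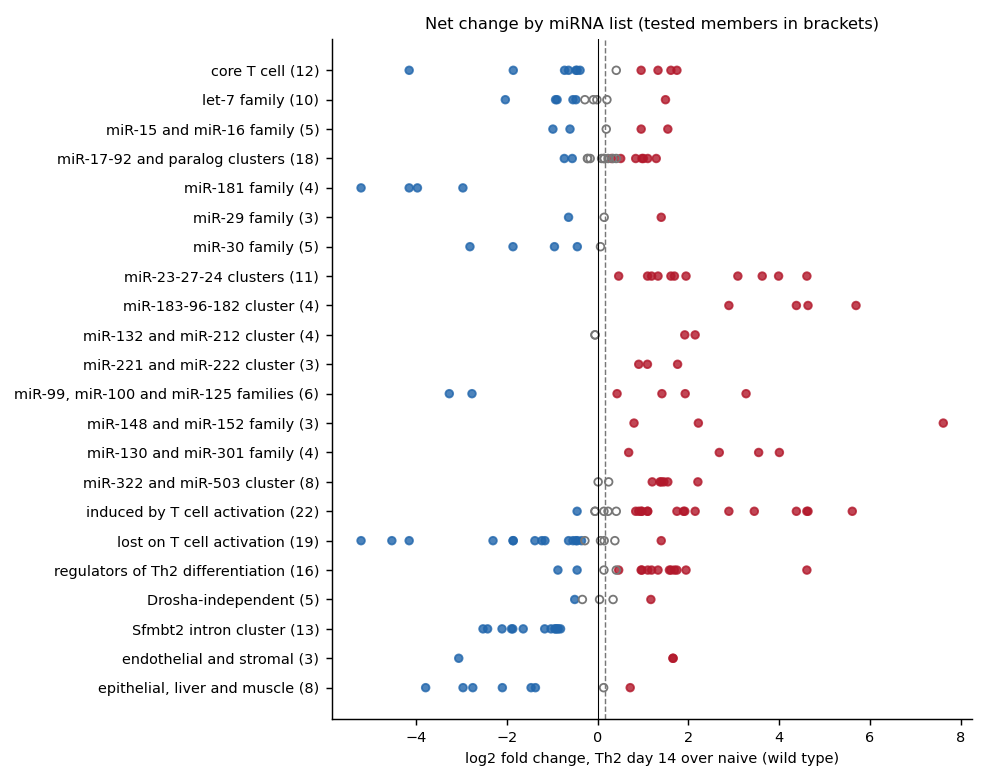
Net log2 fold change (day 14 over naive, x axis) of the tested members of each list with at least 3, 1 point per miRNA; filled red and blue points were called higher and lower, open points were not called, and the dashed line is the median of all 382 miRNAs (0.15). All points of the miR-23-27-24 and miR-183-96-182 clusters lie to the right of 0 and all points of the miR-181 family and the Sfmbt2 cluster to the left.

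Counts were also summed by seed, since miRNAs with 1 seed can pair with the same sites. Of 382 tested miRNAs 306 matched a RefSeq sequence, and of 244 seeds tested 187 were called (76.6%), 118 higher and 69 lower. Of 34 seeds with 2 or more tested members, 21 had all members called in 1 direction, and 7 had members called in both. The miR-99 seed was such a case: miR-99b-5p stood at 7931, 8607, 7693 and 9424 CPM in naive cells and 21004, 24665 and 21634 CPM at day 14 (1.42), and miR-99a-5p fell from 314, 349.8, 359.7 and 368 CPM to 41.7, 26.5 and 81.6 CPM (-2.77). Neither overlapped between the groups. miR-99b-5p was the more abundant, and the seed as a whole rose (1.35, adjusted p = 6.92e-09).

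The miR-125 seed split alike. miR-125b-5p fell from 202 ± 34.6 to 20.3 ± 6.89 CPM (-3.27), miR-125a-5p ended slightly higher and miR-351-5p rose from 1569.6 ± 268 to 4067 ± 409.8 CPM (1.37). In sum this seed was carried by 9919.96 CPM in naive cells, 5356 CPM at day 7 and 15039 CPM at day 14 (0.60, adjusted p = 0.000103). In the miR-146 seed, miR-146a-5p fell from 9382 ± 1068 to 6842 ± 286 CPM and miR-146b-5p, in an intron of Mfsd13a (chr19:46342790-46342811), rose from 161, 133, 202 and 235 CPM to 909, 951 and 1036 CPM (log2 fold change 2.41 with SE 0.18, adjusted p = 9.42e-13). The seed sum fell slightly (-0.29, adjusted p = 0.0395), and the miR-146a-5p call ended with DESeq2 size factors and STD scaling. In the let-7 seed let-7e-5p rose (1864, 3396, 3277 and 3207 to 8064, 8122 and 8605 CPM, 1.49), beside decreases such as let-7c-5p (-0.90) and let-7b-5p (-0.93). Of the 10 members of the let-7 family list 1 was called higher, against 2 with DESeq2 size factors or library size alone and 4 with STD scaling. The miR-16 seed fell in sum (-0.70, adjusted p = 1.04e-07), with miR-16-5p (-0.61) and miR-15b-5p (-0.99) lower and miR-322-5p (1.55) higher. With STD scaling the call of miR-16-5p ended (-0.18, adjusted p = 0.292). miR-29a-3p (-0.64) and miR-29c-3p (1.40) were also called in opposite directions, though with STD scaling the call of miR-29a-3p ended (-0.22, adjusted p = 0.460).

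The hairpins of miR-99b, let-7e and miR-125a lie side by side in Spaca6 (chr17:17830194-17830879), and all 5 tested arms of this cluster were higher, from 0.43 to 3.27. miR-99a, which fell, lies in an intron of Mir99ahg (chr16:77598940-77598961). Of 25 clusters of hairpins on 1 strand within 10 kb of each other, 20 had called members in 1 direction only, 4 in both and 1 in none. All 7 tested arms of the Clcn5 cluster on chromosome X (Mir500, Mir501, Mir362, Mir188 and Mir532) were higher, from 2.07 to 3.36, and all 4 of the Mir429-Mir200a-Mir200b cluster on chromosome 4 were lower, from -3.79 to -1.47. miR-501-3p of the Clcn5 cluster stood at 1367, 1049, 1257 and 1169 CPM in naive cells and 8869, 11821 and 10837 CPM at day 14 (3.12).

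Both arms of a hairpin come from 1 precursor, and for 74 hairpins both were tested. In 44 both arms were called in the same direction, in 19 only 1 arm was called, in 10 neither, and in 1 the arms were called in opposite directions. That hairpin was Mir29a, with miR-29a-3p lower (except with STD scaling, where it was not called) and miR-29a-5p higher (26.1, 17.7, 23.7 and 10.7 against 31.2, 37.9 and 49.7 CPM, log2 fold change 0.95 with SE 0.41, adjusted p = 0.0355). The call of miR-29a-5p, on 19 and 33 counts, ended with no filter, with loess offsets, with the replicate block and without naive library 2 or 4 or day 14 library 2 or 3. The less abundant arm rose more than the main arm in Mir27a (4.61 against 1.61), Mir21a (4.61 against 1.75) and Mir155 (3.45 against 0.96), and these 3 were chosen after their values were seen.

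miRNAs known as markers of other cells moved between the groups as well, and their part in the results was not tested. The T cell markers were present in all 7 libraries: miR-142a-3p, which blood cells make in general, stood at 3422, 4401, 4692 and 4568 CPM in naive cells and 2065, 2403 and 3243 CPM at day 14 (-0.73), and miR-150-5p and miR-155-5p are given above. Of 4 myeloid markers miR-511-5p had 0 counts in all wild-type libraries, and the sum of the list was 18.7 to 42.7 CPM in naive cells and 0 to 3.79 CPM at day 14. The 5 red cell and platelet markers summed to 549 to 1336 CPM in naive cells and 295 to 426 CPM at day 14, most of it miR-486a-5p and miR-486b-5p, which have the same values and whose 2 rows were both called lower (-0.996, a call that ended with STD scaling). Both of these rows enter the sum, so that equal values are added there. miR-451a, the red cell miRNA proper, was at 0 to 7.91 CPM in naive cells and 0 at day 14. Of the same list, miR-144-3p was at 7.47 to 265 CPM in naive cells and 0 to 3.79 CPM at day 14. miR-144-5p was at 0 to 3.95 CPM in naive cells and 0 at day 14. The 9 endothelial and stromal markers summed to 149 to 379 CPM and 531 to 694 CPM, with both arms of miR-126a higher (1.66 and 1.66) and miR-143-3p lower (-3.06). The 12 epithelial, liver and muscle markers summed to 5392 to 6265 CPM and 3619 to 4381 CPM, and 6 of 8 tested were lower, among them miR-200c-3p (-2.10), miR-200b-3p (-2.97) and miR-122-5p. miR-192-5p of this list was higher (0.72) and had been at 6185 CPM at day 7, against 2024 and 3324 CPM at the ends.

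The AGO134 knockout libraries give the same net comparison in other samples, 4 naive and 3 at day 14. There 277 of 382 miRNAs were called (72.5%). Of the 297 wild-type calls 281 had the same sign in the knockout and 249 were also called with that sign, which is 83.8% of the wild-type and 89.9% of the knockout calls, and 2 were called with the opposite sign. Of the 56 miRNAs that turned back in wild type 37 also did in the knockout, where 61 turned back in all, and all 37 had the same direction at day 7. Of the 11 that returned in wild type, 4 also returned in the knockout and 7 did not turn back there. The latter included miR-15a-5p, let-7a-1-3p, let-7c-2-3p and miR-340-3p. Of the 35 that were partway in wild type, 21 were partway in the knockout too and 7 did not turn back. Among the 6 that passed their naive level, miR-23b-5p passed it in the knockout too and miR-125a-5p returned. The other 4 did not meet the rule there, though miR-122-5p had a like net change (-3.01).

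The net change itself differed between the genotypes for 26 miRNAs (6.81%, with 91 at an unadjusted p under 0.05), 17 of them higher in the knockout and 9 lower. The split was 21 and 6 with library size alone, 20 and 15 with loess offsets, 13 and 15 with DESeq2 size factors and 9 and 3 with STD scaling. miR-10a-5p, which rose in wild type, stood at 362 ± 116 CPM in naive and 324 ± 90.6 CPM in day 14 knockout cells (SD, n = 4 and 3; net -0.27, difference -1.85 with SE 0.42, adjusted p = 0.00478). miR-146b-5p (difference -1.90, adjusted p = 0.000133), miR-29a-5p (-3.12), miR-212-5p (-1.93) and miR-132-3p (-1.75) also had lower net changes in the knockout. Of these, miR-29a-5p rested on few counts and was too rare to be tested without naive knockout library 4. The 5 with the smallest p in the other direction were miR-222-3p (1.83, adjusted p = 0.000141), miR-181b-5p (1.21), miR-203-3p (1.78), miR-92a-1-5p (1.24) and miR-351-5p (0.96). miR-222-3p, which targets the cell cycle inhibitor p27, thus had a net change of 0.90 in wild type and 2.73 in the knockout. Depth moved with these groups: naive knockout libraries held 64264 to 195122 miRNA counts.

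**Figure D5:**
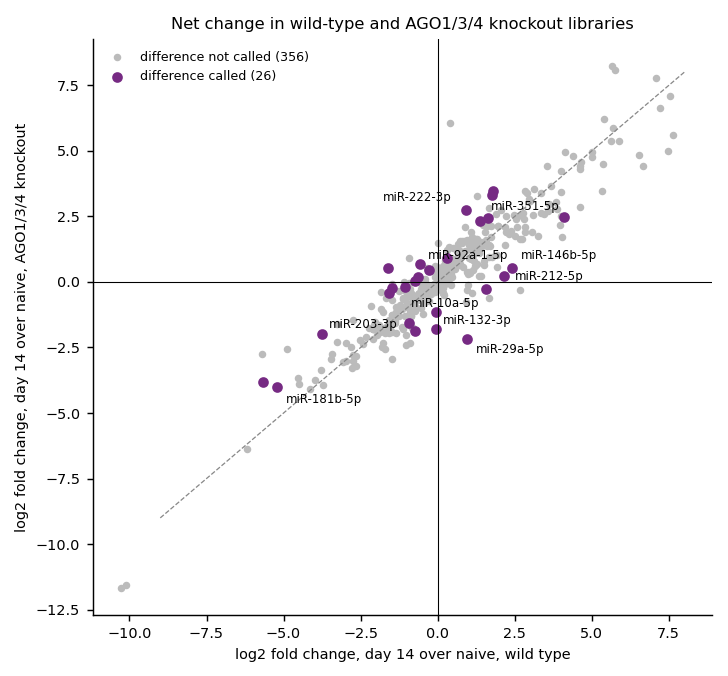
Net log2 fold change (day 14 over naive) of 382 miRNAs in wild-type libraries (x axis) and in AGO134 knockout libraries (y axis), 1 point per miRNA; purple points are the 26 whose net change differed between genotypes, with the 5 of smallest p in each direction named, and the dashed line marks equal change. miR-10a-5p, miR-146b-5p and miR-212-5p lie to the right near the horizontal line at 0.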

How the data were processed

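Small RNA libraries of total RNA were deposited as 1 table per sample of whole-number counts per mature miRNA entry, per the file headers. The submitters' processing notes name GRCm38, and the library kit is Illumina's TruSeq kit, per the labels. Aligner, counter, miRNA database and strand setting, and whether molecular identifiers were used, stand in no source used here, and reads of near-identical miRNAs may be split. The labels call the reads single-end and the series text paired-end.

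The 9 STD entries were dropped, and of a name with several locus entries the one with the highest total was kept. The deposited counts of 22 libraries (6 groups of the AGO1/3/4 experiment) were fitted in edgeR 4.0.16 (R 4.3.3, limma 3.58.1) with TMM scaling, filterByExpr at a minimum count of 10, no replicate block, and the quasi-likelihood test with Benjamini-Hochberg adjustment over all 382 miRNAs tested. Of 1966 names in the files these held 99.7% of miRNA counts. Printed levels are TMM-scaled CPM, with SD over libraries. The AGO genes were not measured, so that the genotype labels have no check. In 15 pairs of libraries of 1 group the counts differed beyond sampling noise (chi-square per degree of freedom at least 2.85), and none was a copy. Seeds and positions come from RefSeq (GRCm38.p6), which matched 1675 of 1966 names. Gene overlaps come from a GENCODE annotation of the same build and were sought on the same strand only.

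The class of a miRNA that turned back is passed (net change called against day 7), returned (95% interval of the net change within 2-fold), partway (net change called in the day 7 direction) or undetermined. Named are the 12 largest called changes in each direction at 100 CPM or more, the 10 most abundant miRNAs at each end, those that turned back at 100 CPM or more, up to 4 abundant members of each list (all members of lists with 6 or fewer tested), and the 5 smallest p in each direction of the difference between genotypes. Others, such as miR-501-3p, miR-16-1-3p and miR-6899-3p, were chosen after their values were seen. The members and lists were chosen with earlier results of these data known. Exact 95% intervals of ratios use counts and cover counting error only, since reads without molecular identifiers are not independent molecules. The script was tested on simulated counts. Alternatives were other scalings, DESeq2 1.42.0, no filter, fewer groups in the fit, all locus entries, the replicate number as a block and other limits of the return rule. Each wild-type library and each naive or day 14 knockout library was also left out in turn.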

Additional observations from a re-analysis of the deposited data

Results flagged for a closer look

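Among 286 sets of 4 libraries tested, 16 held a library far from the other 3 by Dixon's criterion (the gap to the nearest of the others against the whole range), and chance sets aside about 1 set in 20. In naive cells the libraries that stood apart were at 1019.8 CPM for miR-10a-5p (others 320.2 to 379), 4.43 CPM for miR-147-5p (others 0), 493 CPM for miR-184-3p (others 23.7 to 53.4), 581 CPM for miR-1943-5p (others 654 to 667), 137 CPM for miR-19a-3p (others 67.2 to 74.7), 4488 CPM for miR-23b-3p (others 3478 to 3635), 5.34 CPM for miR-301b-3p (others 26.6 to 29.9) and 304 CPM for miR-363-5p (others 407 to 425). These fall 2 to each naive library.

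At day 7 they were at 25583 CPM for miR-16-5p, 24447 CPM for miR-182-5p, 1482 CPM for miR-210-3p, 321 CPM for miR-677-3p and 154 CPM for miR-99a-5p, all 5 in library 1. The others were at 389.9 CPM for miR-222-3p in library 2, and at 99.1 CPM for miR-219a-1-3p and 142 CPM for miR-5100 in library 4. Library 1 thus held the lowest miR-210-3p level of day 7, where the other 3 libraries had 2666 to 2873 CPM.

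Another 10 miRNAs were singled out because their net change differed between the genotypes in edgeR's test of the difference. On the log2 scale, knockout minus wild type, the differences were 1.83 for miR-222-3p, 1.21 for miR-181b-5p, 1.78 for miR-203-3p, 1.24 for miR-92a-1-5p and 0.96 for miR-351-5p. They were -1.85 for miR-10a-5p, -1.75 for miR-132-3p, -1.90 for miR-146b-5p, -1.93 for miR-212-5p and -3.12 for miR-29a-5p. With STD scaling miR-132-3p and miR-10a-5p lost this call (adjusted p = 0.0740 and 0.122). Without naive knockout library 4 miR-29a-5p was too rare to be tested.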

How the results depend on the processing

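The number of net calls was 263 to 303 of 382 under the other scalings and tools (DESeq2 296, no filter 359 of 1211 tested), and 286 to 298 with 1 wild-type library left out. With STD scaling 91 miRNAs were lower, 5 returned and 12 differed between genotypes, and with a return limit of 1.5-fold 0 returned. Scaling shifted the median of all miRNAs (0.15, or 0.35 and 0.58 with DESeq2 size factors and STD scaling), and the cause of that shift was not tested. Leaving out 1 wild-type library gave 146 to 156 higher, 133 to 144 lower, 49 to 58 turned back, 8 to 12 returned and 5 to 6 passed. Leaving out 1 naive or day 14 knockout library gave 24 to 39 different between genotypes. That number was not counted without a wild-type library. Of 120 named calls 98 held under each alternative that tested them (miR-184-3p, among others, was filtered out under some), 22 were lost under at least 1 and 2 changed sign. Of 23 named miRNAs without a call, 11 gained one of the same sign under at least 1 alternative. Signs turned as follows.

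With DESeq2 size factors and with DESeq2 itself, values were let-7i-5p 0.18, miR-132-3p 0.14, miR-132-5p 0.14, miR-191-5p 0.10 and miR-93-5p 0.035. With STD scaling they were let-7f-5p 0.15, let-7i-5p 0.41, miR-132-3p 0.36, miR-132-5p 0.36, miR-191-5p 0.33, miR-1943-5p 0.10, miR-25-3p 0.20, miR-26a-5p 0.068, miR-671-3p 0.012, miR-877-3p 0.080 and miR-93-5p 0.26. With loess offsets they were let-7i-5p 0.035, miR-132-3p 0.11, miR-132-5p 0.040, miR-30c-5p -0.034 and miR-320-3p -0.052. With no filter they were let-7i-5p 0.065, miR-132-3p 0.022 and miR-132-5p 0.027. let-7i-5p was 0.019 with library size alone and 0.036 with naive and day 14 wild-type libraries alone.

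With 1 library left out, ranges that cross 0 were -0.076 to 0.19 for miR-30c-5p, -0.051 to 0.10 for miR-320-3p, -0.12 to 0.094 for miR-450a-5p, -0.38 to 0.069 for miR-132-3p and -0.14 to 0.068 for let-7i-5p. They were -0.17 to 0.0061 for miR-132-5p, -0.26 to 0.021 for miR-191-5p, -0.017 to 0.37 for miR-542-5p, -0.019 to 0.38 for miR-15a-5p and -0.025 to 0.25 for miR-29b-3p. Values that moved by over 1.5 times were miR-147-3p without naive library 1 (6.54), miR-147-5p without naive library 2 (8.14), miR-183-3p without naive library 4 (6.30), miR-211-5p without day 14 library 2 (-11.90), miR-143-3p and miR-672-5p without day 14 library 3 (-3.98 and 6.57).

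Same-numbered libraries did not deviate together (10 pairs, r -0.29 to 0.06), so the numbers are not taken to pair them. The replicate block gave 293 net calls and let-7i-5p 0.0037. Depth limits rare miRNAs, since 1584 of 1966 names had too few counts to test.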

Other observations

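miR-6899-3p, which no list holds, stood at 52.3, 39.8, 55.3 and 26.7 CPM in naive cells, 4.17, 0, 0 and 3.10 CPM at day 7 and 10.4, 15.2 and 17.7 CPM at day 14. Its log2 change was -4.34 to day 7 and 2.74 after it, with a net change of -1.59, and it was partway back under all 19 alternatives that hold the day 7 libraries. miR-7072-5p had changes of -3.79 and 3.07 and was left undetermined with a net change of -0.72. Both were chosen after their values were seen.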
